A study of Mus musculus with 2 samples.

Results

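Glycosaminoglycans are long sugar chains that cells attach to core proteins to make proteoglycans of the cell surface and the extracellular matrix. Most chains start from a short linker built on a serine of the core protein. From there they are extended either as chondroitin sulfate, in which N-acetylgalactosamine alternates with glucuronic acid, or as heparan sulfate, in which N-acetylglucosamine takes that place, and both kinds are then decorated with sulfate. Heparan sulfate binds growth factors and basement membrane proteins, and chondroitin sulfate is known from cartilage, perineuronal nets and the tectorial membrane of the inner ear. The 8 genes described here are Xylt1, Chsy3, Chst9, Ext1, Ndst3, Hs6st3, Hs3st1 and Hpse2, of 48816 features measured. Xylt1 encodes a xylosyltransferase that begins the linker of both chains. Chsy3 encodes a chondroitin synthase, and Chst9 a sulfotransferase that adds sulfate to N-acetylgalactosamine, including the terminal sugar of some N-linked glycans. Ext1 encodes a subunit of the polymerase of heparan sulfate, while Ndst3, Hs6st3 and Hs3st1 encode sulfotransferases that act on the N, 6-O and 3-O positions of its glucosamine. Hpse2 encodes heparanase 2, a relative of heparanase that binds heparan sulfate and lacks its cleaving activity. The genes were chosen by symbol, with their CPM (UMIs of a gene scaled to the total UMIs of a class) and their share of nuclei by class in these same libraries in view, so the differences between classes given below are a description of those values and no test of them was made.

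The study asked which genes distinguish spindle and root cells, 2 rare cell types at the edge of the stria vascularis, the epithelium in the lateral wall of the cochlea that makes endolymph. Nuclei came from the stria vascularis of CBA/J mice at postnatal day 30. For the MethFix library, nuclei from 5 to 6 mice were pooled and fixed in methanol after isolation. For the RNAlater library, tissue was pooled from 10 mice by the labels (the study's methods give another number) and kept in RNAlater, a reagent that stabilizes RNA, before nuclei were isolated. There was 1 library for each preservation method, so no test between methods was possible, and each mouse's own values are not known.

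The 2 libraries, both made with 10x 3′ chemistry, were not independent. Of 4748 MethFix barcodes and 3868 RNAlater barcodes, 3323 stood in both matrices, which is 70.0% and 85.9% of each. In these shared barcodes the members' counts lay close together. For Chsy3, the smaller of a barcode's 2 counts, summed over shared barcodes, came to 2662 UMIs. That is 94.4% of the 2819 UMIs that these barcodes held in MethFix, while in RNAlater they held 3325. For Chst9 this overlap was 93.2% of 2990 MethFix UMIs, beside 3577 in RNAlater. For Hpse2 it was 92.9% of 169, beside 205. Counts cannot show whether these were the same molecules. The values of the 2 libraries are therefore given side by side and do not count as replicates, and values from barcodes found only in the MethFix matrix are given where a class had such nuclei.

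After filters on genes, counts, mitochondrial counts and doublets, 3372 MethFix and 2311 RNAlater nuclei remained, with a median of 3499 and 4702 UMIs. Clusters were named from marker lists, with the members and all other genes of the glycosaminoglycan lists left out of the genes used for clustering. The intermediate class, the melanocyte-like cells of the stria, held 854 MethFix and 522 RNAlater nuclei, and all 8 of its markers were detected. The spindle class held 97 and 55 nuclei with all 7 of its markers. The root class held 34 nuclei in each library and was led by Lgr5, Rspo2 and Slc26a4, yet 2 of the other markers of the root list were all but absent from it. Nr2f1 was at 8.50 CPM in MethFix and 0 in RNAlater, and Sall2 was at 0 in both. In the tectorial class Nr2f1 was at 744 and 854 CPM and Sall2 at 186 and 213. Both were also found in a cluster of 38 MethFix and 35 RNAlater nuclei led by Prss36, Srgap1, Epyc, Otogl and Ceacam16, with Nr2f1 at 359 and 474 and Sall2 at 58.2 and 82.1. Otogl and Ceacam16 encode tectorial membrane proteins, and this cluster was left unnamed because the root and tectorial lists scored alike in it. It is called the Otogl-led cluster, and its values for the members are set beside those of the root class. The other classes were marginal (1080 and 673 nuclei), basal (750 and 593), Reissner's membrane (155 and 156) and tectorial (14 and 13). Macrophage markers were low in the classes compared, with 0 and 2 of 7 detected in root nuclei and 1 and 0 of 7 in spindle nuclei. In the larger intermediate class all 7 were detected in both libraries, with summed levels of 16.2 and 15.8 CPM. Marginal markers summed to 3379 and 3667 CPM in spindle nuclei, and their part in the results on spindle nuclei was not tested.

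In the files' build, GRCm38, the members for which positions are given are long genes whose exons make up 0.234% to 6% of the span. Hpse2 spans chr19:42786539-43388355 on the minus strand, 601.8 kb of which 0.769% is exonic, and Hs6st3 spans chr14:119138341-119869815 on the plus strand, 731.5 kb of which 0.234% is exonic. Xylt1 lies at chr7:117380979-117673580 on the plus strand, Ext1 at chr15:53064038-53346159, Hs3st1 at chr5:39613935-39755475 and Ndst3 at chr3:123526166-123690853, the last 3 on the minus strand. None of the 8 genes overlaps another protein-coding gene on its own strand, although noncoding genes overlap Xylt1, Hpse2, Hs6st3 and Ndst3. UMI levels were not scaled by gene length, so they are compared between classes within a gene and not between genes.

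Upstream sequence from RefSeq was at hand for 4 of the 8 members. Of these 4, Hpse2 and Hs3st1 were the ones whose levels in root and spindle nuclei differed beyond counting error. The 250 bases before the start of each are shown. Both are written 5′ to 3′ on the minus strand of GRCm38.p6, Hpse2 from chr19:43388356-43388605 and Hs3st1 from chr5:39644632-39644881, the latter a RefSeq start inside the longer gene span given above.
Hpse2: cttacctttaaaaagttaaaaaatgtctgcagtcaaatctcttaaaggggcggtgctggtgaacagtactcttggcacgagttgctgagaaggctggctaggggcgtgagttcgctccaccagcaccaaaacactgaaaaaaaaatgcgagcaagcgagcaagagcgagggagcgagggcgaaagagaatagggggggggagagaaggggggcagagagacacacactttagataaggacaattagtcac
Hs3st1: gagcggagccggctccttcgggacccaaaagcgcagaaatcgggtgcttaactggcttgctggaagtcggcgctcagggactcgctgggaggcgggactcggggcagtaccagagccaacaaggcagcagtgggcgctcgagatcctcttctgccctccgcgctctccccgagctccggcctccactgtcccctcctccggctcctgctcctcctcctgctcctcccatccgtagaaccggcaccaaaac
The Hpse2 window had a GC content of 50% and 9 CpG dinucleotides, more than 59.7% of the 32851 promoters in the table, whose median was 6. The Hs3st1 window had a GC content of 66% and 19 CpG dinucleotides, more than 80.3% of promoters. Both strands were searched for TGAGTCA, the core letters bound by AP-1 and BACH factors, which 4.46% of promoters hold, and for AGGTCA, a nuclear receptor half-site, which 14% hold. Neither run of letters was in either window, which says only that these letters are not there.

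The members fell into 3 patterns over the classes. In the named nuclei, nearly all Chsy3 UMIs and most Xylt1 UMIs lay in intermediate nuclei. In CPM, Xylt1 was about as high in the much smaller root class. Chst9 was highest in spindle and root nuclei, and Hs3st1 and Hpse2 separated root from spindle nuclei. Ext1 was detected in every class. Hs6st3 and Ndst3 had few UMIs in any named class. Where 2 values stand side by side, the first is MethFix and the second RNAlater. A level is the UMIs of a gene as a part of all UMIs of a class, in CPM, with its exact Poisson interval at 95%, a share is the percent of nuclei with at least 1 UMI, and a ratio is the log2 of the level in a class over that in all other named nuclei. These intervals cover counting error only. A gene was called higher or lower when the log2 ratio was at least 2 in size in the same direction in both libraries, among the 11079 genes with at least 50 UMIs in the named nuclei of each library. Of the 8 members, 7 passed this filter and Ndst3 did not, with 3 and 8 UMIs.

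**Figure D1:**
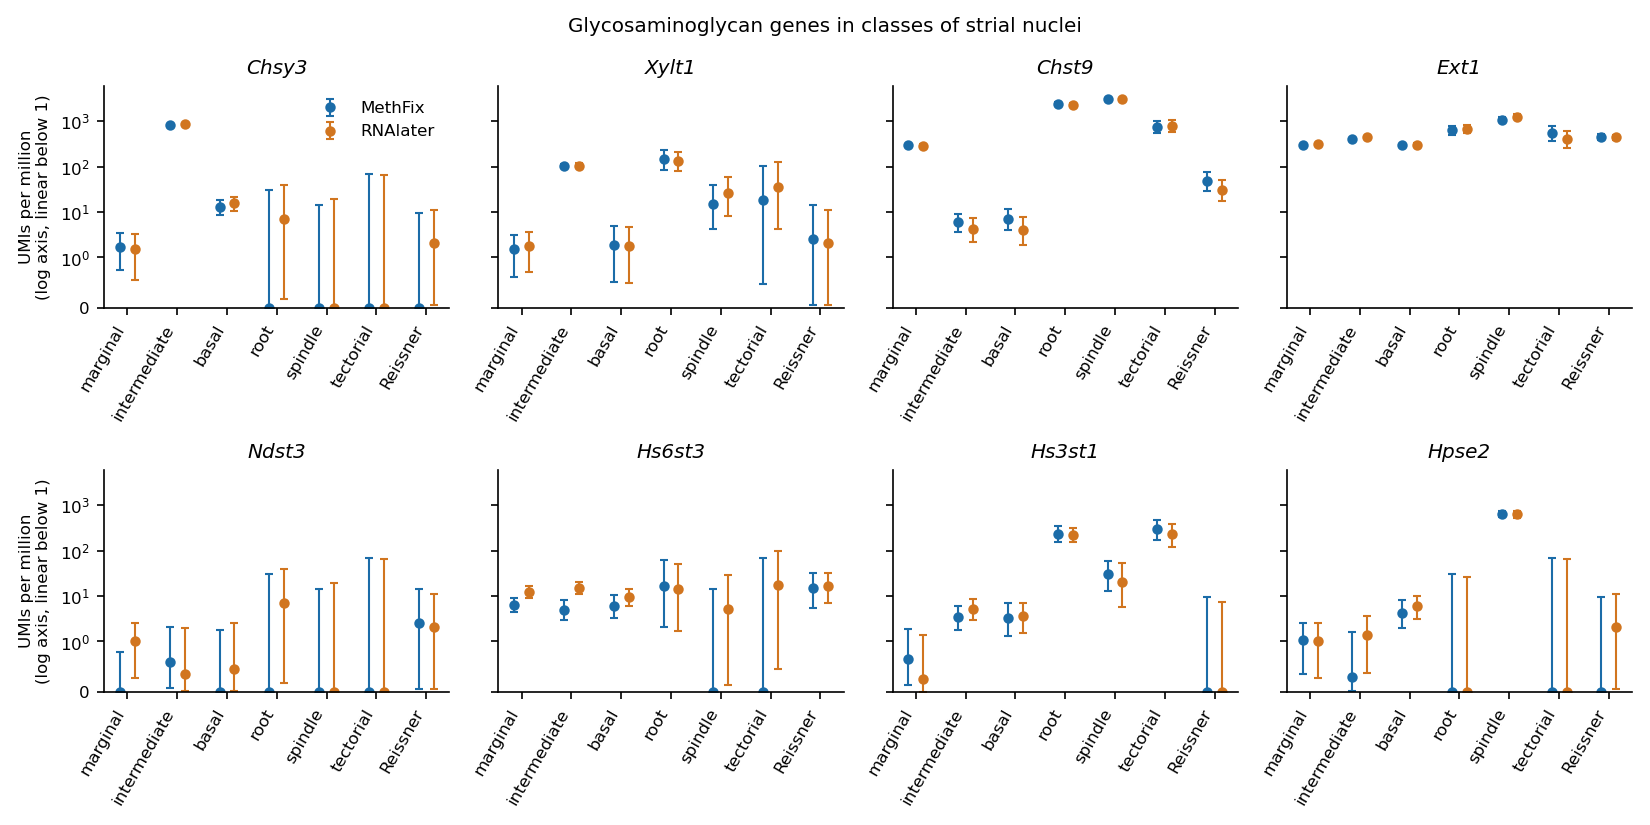
Level of each of the 8 genes by class of nuclei, in CPM on an axis that is logarithmic above 1 and linear below it, with MethFix in blue and RNAlater in orange. Points are levels and bars are exact Poisson intervals at 95%; Chsy3 is high in intermediate nuclei, Chst9 in root and spindle nuclei, Hs3st1 in root and tectorial nuclei and Hpse2 in spindle nuclei, while Ext1 is present in all 7 classes.

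Xylt1, the gene of the linker, was at 104 CPM (93.7 to 116) in MethFix intermediate nuclei and 105 (93.8 to 118) in RNAlater. In root nuclei it was at 144 (84.2 to 231) and 134 (80.4 to 209), from 17 and 19 UMIs. In spindle nuclei it was at 15.3 and 25.8, from 4 and 5 UMIs. The intervals of intermediate and root nuclei overlapped in both libraries and those of spindle nuclei lay below both. Marginal nuclei, with 1.51 and 1.77, and basal nuclei, with 1.90 and 1.82, were lower again. Against the other named nuclei, intermediate nuclei had a log2 ratio of 4.42 (3.93 to 4.95) and 3.62 (3.22 to 4.04). That of root nuclei was 2.08 (1.28 to 2.77) and 1.94 (1.19 to 2.60), just past and just short of the threshold. Of the root UMIs, 64.7% in MethFix and 57.9% in RNAlater came from 2 nuclei, and without the 2 highest nuclei the mean ratio fell to 0.63. The Otogl-led cluster was at 146 (81.4 to 240) and 100 (50.1 to 180), within the intervals of root nuclei. The 25 MethFix nuclei of the smallest named classes held Xylt1 at 62.3 (12.9 to 182) and the 27 RNAlater ones at 321 (204 to 482), where 17 of 23 UMIs came from 2 of 12 macrophage nuclei.

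Among intermediate nuclei, Xylt1 differed by cluster more than Chsy3 did. In MethFix, the cluster led by Opcml and Col5a3 was at 187 CPM (166 to 210) and the cluster led by Kcnj13 and Gpr158 at 21.1 (13.6 to 31.1). The third cluster, led by Ifnk and Phlda1, was at 59.8 (42.6 to 81.8). In RNAlater, both clusters with Opcml among their leading genes were high, at 154 (132 to 179) and 166 (135 to 201), and the Kcnj13 cluster was again low, at 23.3 (15.2 to 34.1). The share of nuclei with a UMI ran the same way, at 34.1% against 6.38% in the Opcml and Kcnj13 clusters of MethFix and at 33.7% against 7.58% in RNAlater. Xylt1 itself was left out of the genes used for clustering, but the clusters were made from these nuclei, so the difference between them is a description.

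Chsy3, the chondroitin synthase, was at 818 CPM (788 to 849) in MethFix intermediate nuclei and 883 (849 to 918) in RNAlater. It was found in 640 of 854 nuclei (74.9%) and in 440 of 522 (84.3%). With each nucleus thinned to 1000 UMIs, which left out 37 and 0 shallower nuclei, the shares were 45.9% and 48.5%. Each of the other 6 classes was far lower, including marginal nuclei, which were deeper (a median of 4566 and 6087 UMIs against 4030 and 5446 in intermediate nuclei) and had a Chsy3 UMI in 0.648% and 0.892% of nuclei. Basal nuclei, the next highest of the large classes, were at 12.9 (8.47 to 18.7) and 15.4 (10.7 to 21.6), with a UMI in 2.13% and 2.87% of nuclei. No Chsy3 UMI was found in spindle nuclei of either library, which at this depth allows a share of nuclei with a UMI of up to 3.09% of 97 and 5.45% of 55, taking a count of 3 as the limit. Root nuclei held 0 and 1 UMI and the Otogl-led cluster 3 and 0. The nuclei without a class had a Chsy3 UMI in 15.4% and 6.30%. With the upper limit of 8000 counts lifted, a class of 59 and 12 neuron-like nuclei appeared, in which Chsy3 was at 357 (291 to 433) and 457 (372 to 555), beside 830 and 872 in the intermediate nuclei of that setting. The log2 ratio of intermediate nuclei was 7.36 (6.90 to 7.86) and 7.22 (6.78 to 7.70). The ratios of spindle nuclei were at most -4.51 and -4.08, with the count of 0 set to 3.

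The level of Chsy3 varied within the intermediate class by less than 2-fold. In MethFix the Kcnj13 cluster was highest at 1015 (959 to 1074), the Opcml cluster was at 782 (739 to 828), and the Ifnk cluster was lowest at 542 (487 to 601). The Ifnk cluster was also shallower, with a median of 2336 UMIs against 4677 in the Opcml and 4274 in the Kcnj13 cluster. Its median mitochondrial part was 1.55% against 0.437% and 0.367%. Whether these bear on its Chsy3 level was not tested. In RNAlater the Kcnj13 cluster was again highest at 998 (940 to 1058), ahead of the Opcml clusters at 854 (801 to 911) and 728 (663 to 798). The order of the Kcnj13 and Opcml clusters was thus opposite for Chsy3 and for Xylt1 in both libraries, with intervals that did not overlap. In 117 of 854 MethFix nuclei and 101 of 522 RNAlater nuclei both genes had a UMI. The 298 intermediate barcodes found only in MethFix had less Chsy3 than the shared ones, at 572 (520 to 628) against 890 (854 to 927), and less Ext1, at 299 (262 to 340) against 438 (413 to 464). Xylt1 was at 81.9 (62.9 to 105) against 111 (98.4 to 124) in them.

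**Figure D2:**
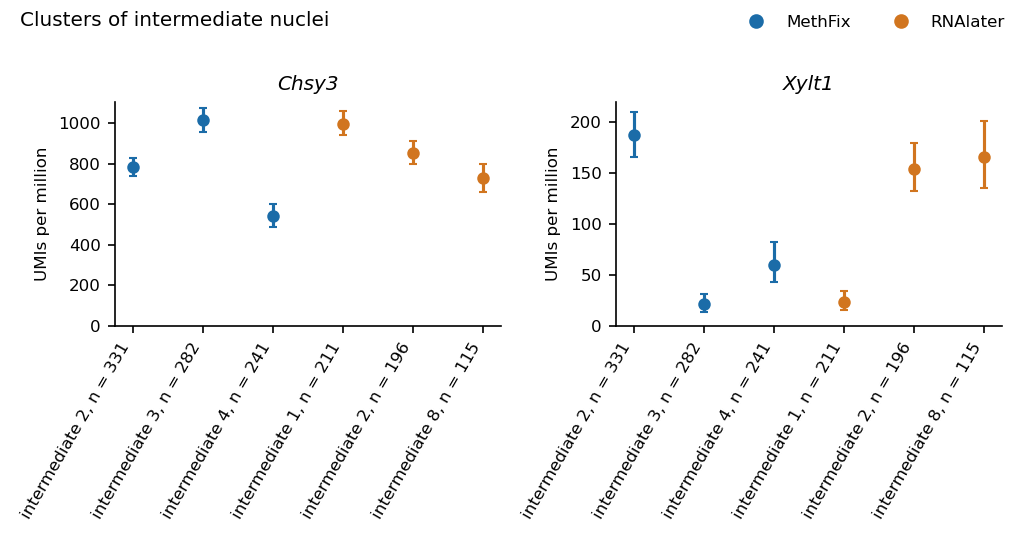
Levels of Chsy3 and Xylt1 in each cluster of intermediate nuclei, in CPM on linear axes that start at 0, with the cluster number and its count of nuclei under each point. Bars are exact Poisson intervals at 95%, MethFix in blue and RNAlater in orange; MethFix cluster 3 and RNAlater cluster 1, both led by Kcnj13, are highest for Chsy3 and lowest for Xylt1.

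Chst9, the sulfotransferase for N-acetylgalactosamine, was highest in spindle and root nuclei, and marginal nuclei held it at a lower level. Spindle nuclei were at 3070 CPM (2861 to 3290) and 3032 (2792 to 3288), with a UMI in 94 of 97 and 53 of 55 nuclei. Root nuclei were at 2405 (2133 to 2702) and 2312 (2069 to 2576), with a UMI in all 34 nuclei of each library. The root intervals lay below those of spindle nuclei in both libraries, a log2 ratio of -0.35 (-0.55 to -0.15) and -0.39 (-0.59 to -0.19). The variance of Chst9 UMIs over nuclei was 2.91 and 4.69 times the mean in root and 6.07 and 8.48 times in spindle nuclei. The intervals leave out this spread, and all root barcodes were in both matrices, so the order of these 2 classes was not tested. The Otogl-led cluster came next, at 1717 (1473 to 1990) and 1806 (1563 to 2076), then tectorial nuclei at 762 (547 to 1034) and 801 (584 to 1071) and marginal nuclei at 303 (287 to 319) and 292 (275 to 309). In RNAlater the intervals of the root class and the Otogl-led cluster just met, while in MethFix they did not. Reissner's membrane nuclei were at 48.0 and 30.6. Basal nuclei, at 7.14 and 4.09, and intermediate nuclei, at 5.91 and 4.22, did not differ beyond their intervals. The 38 spindle barcodes found only in MethFix were at 3199 (2796 to 3643). Thinned to 1000 UMIs per nucleus, without 6 and 2 shallower spindle nuclei, Chst9 was still found in 83.5% and 90.6% of spindle nuclei and in 88.2% and 82.4% of root nuclei. Intermediate nuclei, which were deeper than spindle nuclei (a median of 4030 and 5446 against 2453 and 3333 UMIs), had a Chst9 UMI in 1.64% and 1.72% of nuclei before thinning.

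Ext1, which builds the heparan sulfate chain, was spread over all classes. Spindle nuclei were highest at 1094 (972 to 1229) and 1250 (1097 to 1418), with a UMI in 81.4% and 85.5% of nuclei. Root nuclei followed at 646 (509 to 808) and 682 (553 to 832). Intermediate nuclei were at 406 (385 to 428) and 450 (426 to 476), marginal nuclei at 298 (283 to 314) and 317 (300 to 336), and basal nuclei at 295 (272 to 319) and 306 (283 to 330). Marginal and basal nuclei did not differ beyond their intervals. The log2 ratios were 1.67 (1.49 to 1.84) and 1.76 (1.57 to 1.95) for spindle nuclei, 0.85 and 0.84 for root nuclei and 0.25 and 0.32 for intermediate nuclei, so Ext1 was called in none of them. The Otogl-led cluster was lower than root nuclei, at 369 (261 to 506) and 429 (315 to 570), and in MethFix the intervals did not overlap. In spindle barcodes found only in MethFix the level was 775 (584 to 1009), below the 1213 (1062 to 1380) of the shared ones.

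Hs3st1, which adds the rare 3-O sulfate of heparan sulfate, was at 238 CPM (158 to 344) in MethFix root nuclei and 225 (154 to 317) in RNAlater, from 28 and 32 UMIs in 14 and 17 of 34 nuclei. The Otogl-led cluster was alike, at 243 (157 to 358) and 201 (126 to 304), and so were tectorial nuclei, at 298 (170 to 483) and 231 (123 to 395). Spindle nuclei were at 30.5 (13.2 to 60.1) and 20.7 (5.63 to 52.9), below root nuclei with no overlap of the intervals. Intermediate nuclei were at 3.54 and 5.27, basal nuclei at 3.33 and 3.64, and marginal nuclei at 0.647 and 0.253. Thinned to 1000 UMIs per nucleus, Hs3st1 was found in 23.5% and 17.6% of root nuclei, beside 41.2% and 50.0% unthinned and 0.278% and 0.149% of marginal nuclei. The log2 ratio of root to other named nuclei was 5.72 (5.00 to 6.42) and 5.68 (4.97 to 6.37). That of root to spindle nuclei was 2.96 (1.79 to 4.31) and 3.44 (1.95 to 5.40). Named nuclei held only 77 of 192 MethFix Hs3st1 UMIs (40.1%) and 75 of 177 RNAlater UMIs (42.4%). Unnamed nuclei held 24.5% and 25.4%, and barcodes over the upper limit of counts 33.9% and 31.6%. With that limit lifted, the neuron-like nuclei were at 95.3 (62.8 to 139) and 122 (80.5 to 178). Every root nucleus with Hs3st1 also had Chst9, which all root nuclei held. No root barcode was found in only 1 matrix, so these values rest on the shared barcodes alone.

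**Figure D3:**
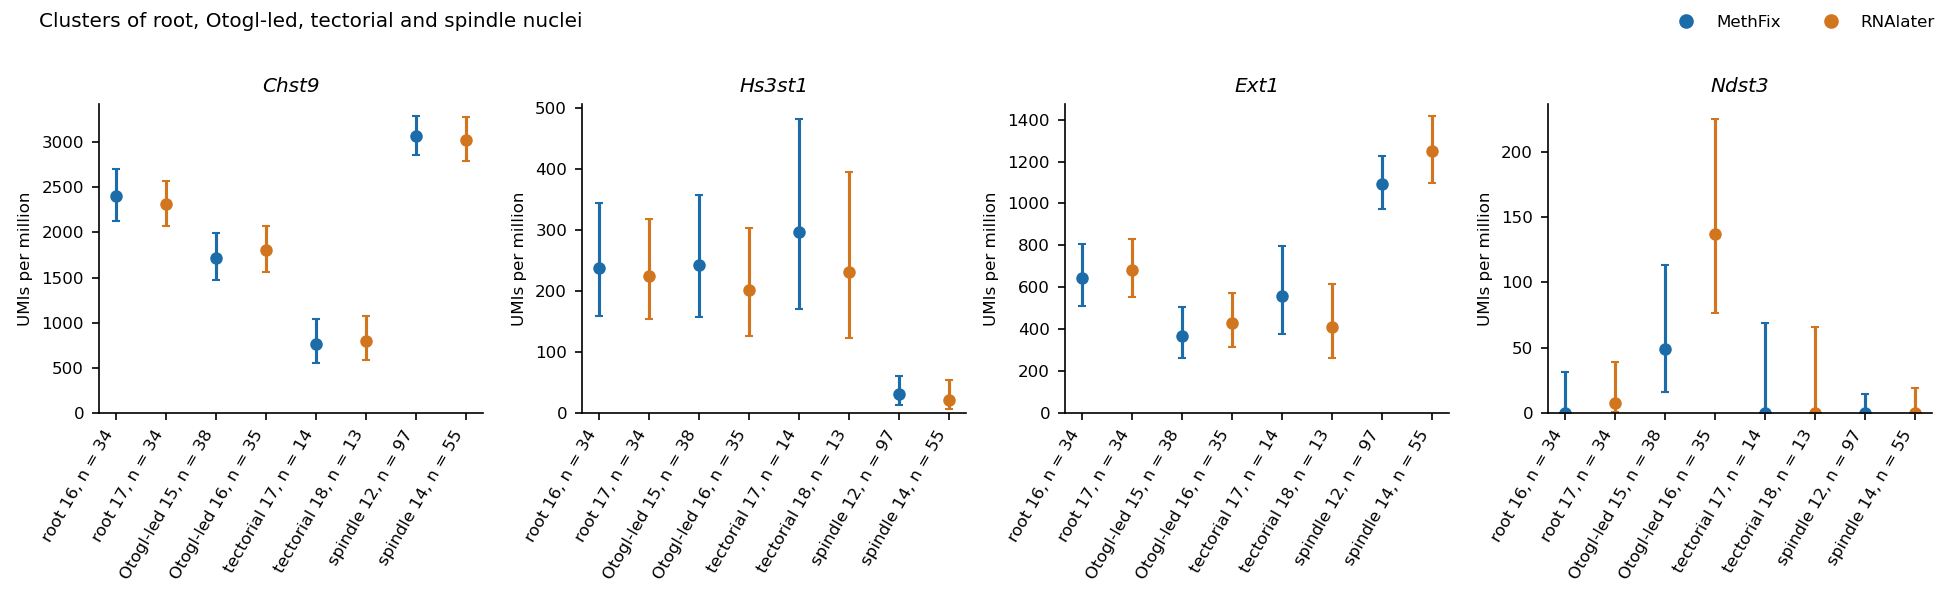
Levels of Chst9, Hs3st1, Ext1 and Ndst3 in the root, Otogl-led, tectorial and spindle clusters, in CPM on linear axes that start at 0, with cluster number and count of nuclei under each point. Bars are exact Poisson intervals at 95%, which leave out the spread between nuclei, with MethFix in blue and RNAlater in orange. The points of Chst9 fall from spindle to root to Otogl-led to tectorial nuclei. Hs3st1 is alike in all but the spindle nuclei, and Ndst3 is highest in the Otogl-led cluster.

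Within the upper limit of counts, Hpse2 was almost confined to spindle nuclei among the named classes, and to a few of them. From 171 and 122 UMIs its level was 652 CPM (558 to 758) and 630 (523 to 752). A UMI was found in 15 of 97 nuclei (15.5%, exact binomial interval 8.92 to 24.2) and 8 of 55 (14.5%, 6.50 to 26.7), and in 13.2% and 11.3% after thinning to 1000 UMIs. Marginal nuclei had a UMI in 0.463% and 0.594%. The other 6 classes were at or below 5.91, the Otogl-led cluster was at 9.70 and 18.2 from 1 and 2 UMIs, and root nuclei held 0 UMIs in both libraries, where a count of 3 would be 25.5 and 21.1 CPM. The log2 ratio of spindle to other named nuclei was 8.87 (8.10 to 9.74) and 8.06 (7.41 to 8.77), and that of root to spindle nuclei was at most -4.68 and -4.90 with the 0 set to that count. Barcodes over the upper limit of counts held 116 of 310 MethFix Hpse2 UMIs (37.4%) and 51 of 205 RNAlater UMIs (24.9%). The highest of these barcodes held 57 and 13 UMIs. With the limit lifted, spindle nuclei were at 634 and 567 CPM, and marginal nuclei at 10.4 and 2.14, from 63 and 13 UMIs.

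The Hpse2 UMIs were uneven between spindle nuclei. The 2 highest nuclei held 41 and 36 UMIs in MethFix and 42 and 35 in RNAlater, which is 45.0% and 63.1% of all its spindle UMIs, and these were the same 2 barcodes in both matrices. The variance of UMIs over nuclei was 22.6 and 28.6 times the mean, where Chst9 had 6.07 and 8.48 times. Without the 2 highest nuclei the mean log2 ratio of spindle nuclei was 7.31. Among the 53 barcodes that were spindle nuclei in both libraries, 8 had a Hpse2 UMI in each library and 7 of them were the same. The 38 spindle barcodes found only in the MethFix matrix gave 690 (511 to 913), with a UMI in 6, so the level and the share were alike in barcodes that the RNAlater matrix lacked. All spindle nuclei with Hpse2 also had Chst9, at 3891 (3303 to 4554) and 4628 (3888 to 5468), against 2923 (2702 to 3156) and 2741 (2494 to 3007) in the spindle nuclei without Hpse2. The median depth of these groups, with and without Hpse2, was 2336 and 2571 UMIs in MethFix and 3217 and 3407 in RNAlater. The 2 nuclei highest in Hpse2 lay above these medians, with 4742 and 3427 UMIs in MethFix and 5604 and 4065 in RNAlater. The next nucleus lay below them in each library, with 1989 and 2257. The part of depth was not tested. Chst9 was in 94 of 97 and 53 of 55 spindle nuclei, so its presence beside Hpse2 was nearly fixed. Of the 155 and 138 Chst9 UMIs in nuclei with Hpse2, single nuclei held 35, 24 and 22 in MethFix and 45, 29 and 23 in RNAlater. The intervals leave out this spread between nuclei, so whether nuclei with Hpse2 hold more Chst9 was not tested.

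**Figure D4:**
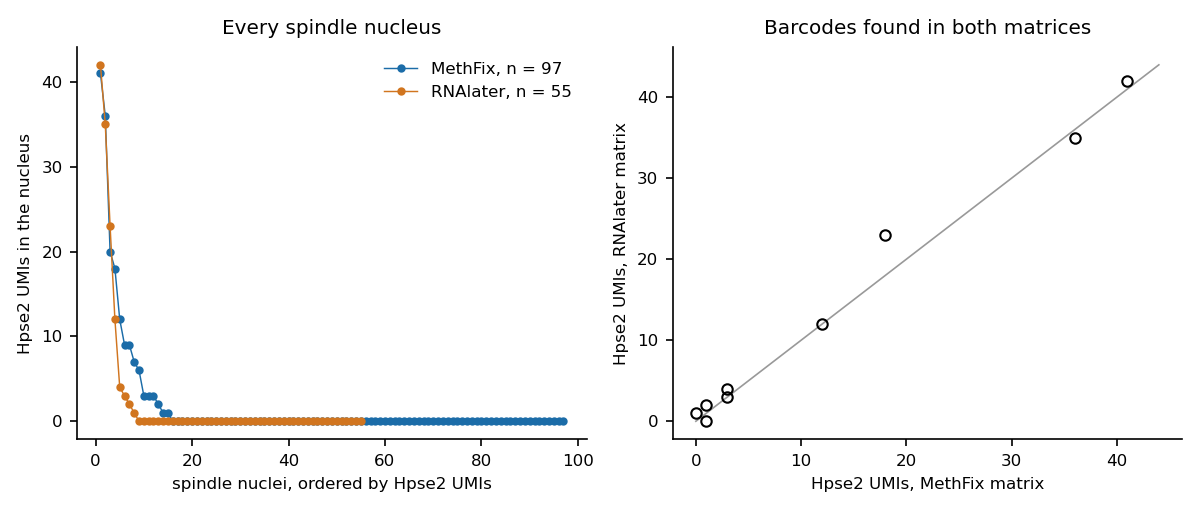
Hpse2 UMIs of single spindle nuclei. The left panel orders all spindle nuclei of each library by their UMIs (MethFix in blue, 97 nuclei; RNAlater in orange, 55 nuclei), and the right panel plots the UMIs in the RNAlater matrix against those in the MethFix matrix for barcodes that were spindle nuclei in both, with the line of equal counts in grey; most nuclei hold 0 UMIs, a few hold up to 42, and the pairs lie close to the line.

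Ndst3, an N-deacetylase and N-sulfotransferase of heparan sulfate, and Hs6st3, a 6-O-sulfotransferase, were scarce in the named classes. Ndst3 was at or below 7.03 CPM in every class, and no UMI was found in spindle nuclei. In the Otogl-led cluster it was at 48.5 (15.7 to 113) in MethFix, from 5 UMIs in 3 nuclei, and at 137 (76.6 to 226) in RNAlater, from 15 UMIs in 4 nuclei of which 1 held 9. Hs6st3 was at 17.0 and 14.1 in root nuclei, from 2 UMIs each, at 38.8 (10.6 to 99.4) and 36.5 (9.94 to 93.4) in the Otogl-led cluster, from 4 UMIs each, at 5.02 and 15.1 in intermediate nuclei and at 0 and 5.17 in spindle nuclei. Its UMIs were mostly in barcodes that the upper limit of 8000 counts removed, with 485 of 618 MethFix UMIs (78.5%) and 570 of 732 RNAlater UMIs (77.9%) in them. With that limit lifted, Hs6st3 in the neuron-like nuclei was at 1522 (1382 to 1673) in 59 MethFix nuclei and 2329 (2133 to 2540) in 12 RNAlater nuclei, with a UMI in 16 and 12 of them. Ndst3 was at 63.6 and 36.2 there. The pattern of Hs6st3 thus depended on the count limit, and with it removed its log2 ratio in intermediate nuclei passed the threshold for lower.

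Counted by comparison, members were called higher in intermediate nuclei for Chsy3 and Xylt1, where 3.64% of all genes tested were called higher, and lower for Chst9 and Hpse2, where 11.3% were called lower. In root nuclei Hs3st1 and Chst9 were called higher (2.21% of all genes) and Chsy3 lower (3.66%). In spindle nuclei Hpse2 and Chst9 were called higher (2.4% of all genes) and Chsy3 lower (3.19%). Between root and spindle nuclei, Hs3st1 and Xylt1 were called higher in root (1.62% of all genes) and Hpse2 lower (2.63%). These counts follow from how the members were chosen. The lower calls of Chsy3 and Hpse2 also follow from the class that held nearly all of their UMIs. Outside intermediate nuclei the named nuclei held 38 and 42 Chsy3 UMIs, and outside spindle nuclei 15 and 23 Hpse2 UMIs. Chsy3 was called lower in every class but intermediate. The median log2 ratio of the 7 members, with a gene at 0 set at its bound, was -0.01 in intermediate nuclei, 0.84 in root nuclei and 1.72 in spindle nuclei, beside medians over all genes of -0.14, 0.04 and -0.06. Counting each of the other classes equally, rather than by their UMIs, took Xylt1 in intermediate nuclei to a mean log2 ratio of 1.71 and Chst9 in root nuclei to 1.76, both below the threshold.

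The chondroitin genes Chsy3 and Chst9 were set against the heparan sulfate genes Ext1, Ndst3, Hs6st3, Hs3st1 and Hpse2 by summing the UMIs of each group. In the gene lists used further on, Chst9 stands with the sulfotransferases of terminal N-acetylgalactosamine and other terminal sugars, and counting it as a chondroitin gene follows the grouping chosen for this comparison. In intermediate nuclei the chondroitin genes were at 824 and 887 CPM, and their log2 ratios to the other named nuclei were 1.27 (1.19 to 1.34) and 1.52 (1.44 to 1.60). The heparan sulfate genes were at 0.13 (0.03 to 0.22) and 0.24 (0.14 to 0.33) on the same scale. The difference, chondroitin minus heparan sulfate, was 1.14 and 1.28 in intermediate nuclei, 1.13 and 1.21 in root nuclei and 0.53 and 0.56 in spindle nuclei. It was negative in marginal nuclei (-0.47 and -0.49), basal nuclei (-4.50 and -4.49) and Reissner's membrane nuclei (-3.67 and -4.09). In tectorial nuclei it differed in sign between the libraries, at -0.49 and 0.11. The chondroitin side rested on 1 gene in each class: Chsy3 in intermediate nuclei, where Chst9 was at 5.91 and 4.22, and Chst9 in root and spindle nuclei, where Chsy3 had 1 UMI in both classes and libraries together. Without Chst9 the mean difference of both libraries became 7.11 in intermediate nuclei and at most -6.59 in spindle nuclei, where Chsy3 had no UMI. In root nuclei it became -5.47, from 0 and 1 Chsy3 UMIs with the 0 set to 3, so in root and spindle nuclei the direction turned. Weighting each gene equally instead of by its UMIs also turned it, to -2.48 and -3.17, values in which genes at 0 were likewise set to 3. The heparan sulfate side of the spindle difference was raised by Hpse2, without which the difference was 1.16.

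The members were then placed among 12 lists of glycosaminoglycan genes, 88 of whose 89 symbols were found and 56 of which passed the filter. In intermediate nuclei 8 of the 56 were called higher and 15 lower, beside 3.64% and 11.3% of all genes tested, with a median log2 ratio of -0.27 beside -0.14 over all genes. Of the chondroitin chain list 3 of 6 were called higher and none lower, with a median of 1.63. Beside Chsy3 these were Csgalnact1, which starts the chondroitin chain, at 78.9 and 74.5 CPM (log2 ratios of 2.65 and 2.39), and Chpf, a polymerizing factor, at 17.4 and 15.8 (2.73 and 2.17). The chondroitin sulfate core proteins Cspg4 (81.2 and 92.7, ratios of 4.19 and 4.72) and Cspg5 (21.0 and 22.1, ratios of 2.32 and 2.60) were higher too, as was the heparan sulfate core protein Sdc3 (84.8 and 91.3, ratios of 2.72 and 2.73). Of the 10 heparan sulfate modification genes that passed, 4 were called lower and none higher, the lower ones being Hs6st1, Hs3st5, Hs3st3b1 and Hs3st6. In marginal nuclei 3 of these 10 were called lower (Hs3st1, Hs3st5 and Hs3st3b1) and 1 higher (Hs3st6). In basal nuclei 2 were called lower (Hs3st5 and Hs3st6) and 1 higher (Hs3st3b1). The other genes called lower in intermediate nuclei, beside Chst9, Hpse2 and Sulf1, were Ust, Chst5, Cemip, Papss2, Slc26a2, Gpc6, Col18a1 and Ptprz1. Of these, Ust, Chst5, Cemip, Papss2 and Ptprz1 were also called lower in marginal nuclei. Slc26a2 and Col18a1 were called higher there, and Gpc6 was not called.

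Hpse and Hpse2, the enzyme that cleaves heparan sulfate and its inactive relative, lay in different classes. Hpse was at 1853 and 1936 CPM in intermediate nuclei against 57.4 and 56.9 in the other named nuclei, a log2 ratio of 5.01 (4.87 to 5.16) and 5.09 (4.94 to 5.24). In spindle nuclei, where Hpse2 was highest, Hpse was at 38.1 and 31.0, a log2 ratio of -4.03 and -4.29. The nuclei compared with them include the intermediate nuclei. Hpse was likewise called lower in marginal, basal, root, Reissner's membrane and tectorial nuclei, so this was not particular to spindle nuclei. In root nuclei, where Hpse2 had no UMI, Hpse was at 42.5 and 49.2, and in the Otogl-led cluster at 77.6 and 54.7. Sulf1 encodes an enzyme that removes 6-O sulfates outside the cell. It was at 15.7 and 17.2 in intermediate nuclei against 939 and 1006 in the other named nuclei together. Sulf1 was also called lower in basal and tectorial nuclei and higher in Reissner's membrane nuclei, so its low level was not particular to intermediate nuclei.

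In root nuclei 3 of the 56 list genes were called higher and 7 lower, beside 2.21% and 3.66% of all genes tested (median 0.07 beside 0.04). Beside Chst9 and Hs3st1 the higher one was Epyc, a dermatan sulfate proteoglycan of cartilage, at 382 and 365 CPM (log2 ratios of 6.60 and 7.28). Epyc was higher still in the Otogl-led cluster, which it helped to lead and which was not among the other named nuclei, at 1281 (1071 to 1519) and 1159 (966 to 1378). In the study, in situ hybridization placed Epyc in root cells, and also in the outer sulcus and greater epithelial ridge. The study also tied Sall2 and its putative target Nr2f1 to root cells, and reported Nr2f1 in Reissner's membrane cells and an unknown population too. Both were likewise higher in the Otogl-led cluster than in the root class. Lgr5, Rspo2, Slc26a4 and Kcnj16, the rest of the root list, were higher in the root class. Lgr5, which the study placed in root cells in situ, was at 1275 and 1279 CPM there and 87.3 and 91.2 in the Otogl-led cluster. Slc26a4 was at 4462 and 4399 against 650 and 730, and Rspo2 at 1436 and 1342 against 310 and 338. Which of these nuclei match the study's root cells was not tested. Ust, which adds 2-O sulfate to uronic acid of chondroitin and dermatan, was listed at 0 in root nuclei of both libraries. In the other named nuclei together it was at 254 and 310. Chst11, a chondroitin 4-O-sulfotransferase, had 1 UMI in root nuclei of each library. In the Otogl-led cluster Ust was at 77.6 and 36.5 and Chst11 at 291 (196 to 415) and 274 (185 to 391), so the low level of Chst11 was not shared between these groups of nuclei. The other genes called lower in root nuclei were Hpse, Cemip, Slc35b3, Gpc6 and Chsy3. In spindle nuclei 5 were called higher and 5 lower, beside 2.4% and 3.19% of all genes tested (median -0.11 beside -0.06). Beside Chst9 and Hpse2 these were Ptprz1, a receptor phosphatase that carries chondroitin sulfate, at 1785 and 1968 (log2 ratios of 5.15 and 4.89), Dsel, an epimerase that makes dermatan sulfate, at 72.5 and 56.8 (2.93 and 2.69), and Chst5, a sulfotransferase of keratan sulfate, at 45.8 and 46.5 (2.85 and 2.52). Ptprz1 was also called higher in Reissner's membrane and tectorial nuclei, and Chst5 in basal nuclei. The 5 called lower in spindle nuclei were Hpse, Cemip, Col18a1, Chst11 and Chsy3. Of these, Hpse and Chsy3 were called lower in every class but intermediate, where both were called higher. Cemip was called higher in basal nuclei and lower in every other class but tectorial. Ust, called lower in root nuclei, was also called lower in marginal and intermediate nuclei and higher in basal nuclei. Chst11 was also called lower in marginal nuclei. These calls were thus not particular to root or spindle nuclei. Between root and spindle nuclei 3 were higher in root (Hs3st1, Xylt1 and Epyc) and 6 lower, beside 1.62% and 2.63% of all genes tested, among them Hpse2, Agrn, and Ptprz1 with 0 and 1 UMI in root nuclei. The other 3 were Dsel, Ust and Slc26a2.

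**Figure D5:**
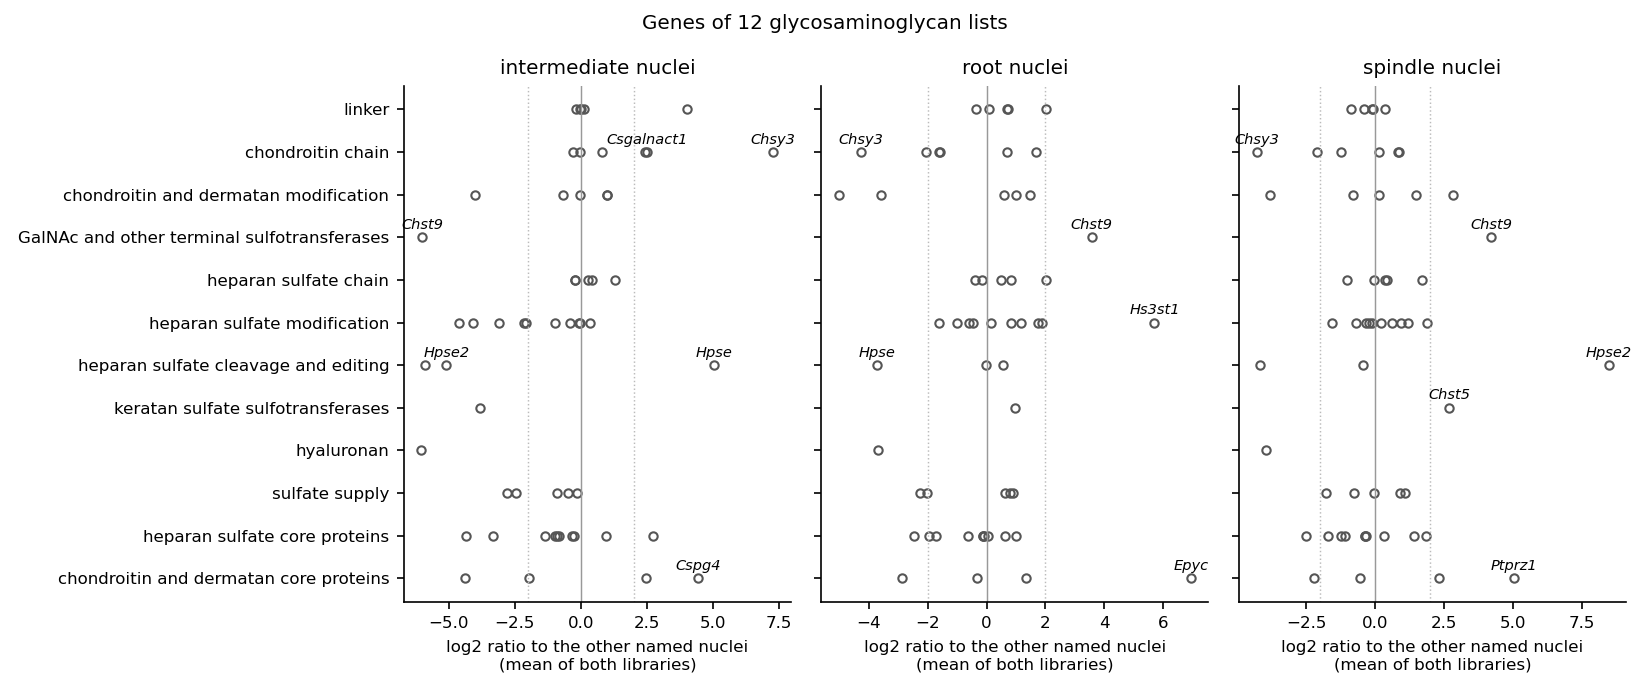
Log2 ratios to the other named nuclei for the 56 genes of 12 glycosaminoglycan lists that passed the filter, as means of both libraries, in intermediate, root and spindle nuclei, with 1 row per list and dotted lines at -2 and 2. Each circle is a gene and a gene at 0 is set at its bound; Chsy3 and Hpse lie to the right in intermediate nuclei, Epyc and Hs3st1 in root nuclei, and Hpse2 and Ptprz1 in spindle nuclei.

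The genes most like each member were found from the Pearson correlation of log2(CPM + 10) over the 7 classes, as a mean of both libraries, among 7081 genes with at least 200 UMIs. These points share their libraries and most barcodes, so the values are descriptions. Chsy3 was most like Insc (0.99), Kcnn4 and Rasa3, and Hpse2 was most like Gm43154 (0.97), Anxa1 and Il1rapl2, the last 2 being markers that named the spindle class. Hs3st1 was most like Otogl (0.98), Bzw1 and Diablo, and Chst9 was most like Ddr1 (0.99), Baiap2l1 and Capn15. For Xylt1 (Klhl40, 0.92), Ext1 (Pnpla3, 0.94), Hs6st3 (Usp16, 0.86) and Ndst3 (Rfx7, 0.74) the nearest genes were less close.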

How the data were processed

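Single-nucleus RNA was captured with 10x 3′ chemistry. The authors deposited, for each library, raw UMI counts per gene and barcode made with Cell Ranger 3.0.1 on GRCm38, per the labels. The authors' own Scanpy 1.4.5 analysis was not used here. Matrices held 21027671 (MethFix) and 17681824 (RNAlater) UMIs.

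After the study's methods, genes in at least 3 nuclei and nuclei of 200 or more genes were kept where counts were no more than 8000 and the mitochondrial part no more than 10%, and 224 and 18 doublets were removed with Scrublet in scanpy 1.11.5 (expected rate 0.1). Clusters came from 4000 variable genes, 30 components, 10 neighbours and leidenalg 0.10.2 at resolutions of 1 and 1.5, giving 21 and 22 clusters. A cluster was named for the marker list with the highest mean log2 ratio of its markers to their lower quartile over clusters. At least 3 markers had to be detected, with a margin of 0.5 over the next list. A least score, and a least part of that list's highest score over clusters, were also required. This scoring rule was set after seeing the clusters. Unnamed nuclei (363 and 238, the Otogl-led cluster included) entered no ratio, and the Otogl-led cluster was set beside root nuclei by its levels.

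The named genes were the 8 members, list genes called in intermediate, root or spindle nuclei, and the 3 genes most like each member. Members and lists were chosen with earlier results of these data known. A count of 0 was set to 3 for ratios. With 1 library per method no test was made. The procedure was tested on simulated counts of 11079 genes. There, 8-fold increases were recovered for 100%, 93% and 100% of genes in intermediate, root and spindle nuclei. Simulated 8-fold decreases were recovered for 94%, 22% and 36%, so that lower levels in the rare classes often went uncalled. The simulated libraries were independent of each other and held counting error only, while the real ones share most barcodes and vary more between nuclei. Alternatives included TMM factors from edgeR 4.0.16.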

Additional observations from a re-analysis of the deposited data

Results flagged for a closer look

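Outside the named classes, 2 values of the members had intervals above the upper limits of all 7 classes compared. The smallest named classes, of 12 or fewer nuclei, had 0 UMIs of either gene and wider limits. Hs6st3 was at 232 CPM (155 to 333) in a MethFix cluster of 71 nuclei led by Kcnd2, Fgf14 and Kcnip4, from 29 UMIs in 9 nuclei, while the highest of the 7 classes, root, was at 17.0. That cluster also held Chsy3 at 272 (188 to 380), Xylt1 at 264 (182 to 371) and Ndst3 at 80.0 (38.3 to 147), whose intervals were not above all 7 classes. Ndst3 was at 137 CPM (76.6 to 226) in the RNAlater Otogl-led cluster of 35 nuclei, from 15 UMIs in 4 nuclei, while the highest of the 7 classes, root, was at 7.03. Neuron and macrophage lists scored alike in the first cluster, and root and tectorial lists in the second, so both were left without a name. The members' values in these nuclei entered no ratio.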

How the results depend on the processing

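The 4 members called in intermediate nuclei, and the 3 called in root nuclei, in spindle nuclei and between root and spindle nuclei, stayed within 1.5 times of these counts except under 2 of the alternatives run. A log2 threshold of 1 gave 5 in spindle nuclei. Naming nuclei singly from their markers left 8 and 6 root nuclei and gave 1 call in root nuclei and 0 between root and spindle nuclei. Barcodes found only in the MethFix matrix kept the 4 calls in intermediate and 3 in spindle nuclei, and held no root nucleus, so no root value could be had. Of 262 alternative values of single members, 215 stayed within the counting interval and 47 moved. A turn in direction was looked for only in members called in the main setting, and 0 of those values turned.

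The difference of chondroitin and heparan sulfate genes depended more on the processing. Its means over both libraries were 1.21 in intermediate, 1.17 in root and 0.54 in spindle nuclei. Weighting the other classes equally gave 0.44 in intermediate and 0.29 in spindle nuclei. Weighting genes equally gave 2.15, -2.48 and -3.17, and leaving out Chst9 gave 7.11, -5.47 and at most -6.59, turning the sign in root and spindle nuclei, where Chsy3 counts of 0 were set to 3. In intermediate nuclei, barcodes found only in MethFix gave 0.72 and no upper limit of counts gave 1.37. Naming nuclei singly gave 1.67 in root and 0.91 in spindle nuclei. Of 3 alternatives chosen after seeing the data, leaving out the 2 highest nuclei per gene gave 0.88 and leaving out Hpse2 gave 1.16 in spindle nuclei, and counting the Otogl-led cluster as root gave 1.11 in root nuclei with the same 3 calls. Both rescalings (TMM and size factors) leave this difference as it is by construction.

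Over all genes, no filter on low counts took the genes called higher from 245 to 638 in root nuclei and from 266 to 640 in spindle nuclei, and from 37.7% to 61.2% and from 43.0% to 64.5% of calls. In intermediate nuclei it took them from 403 to 639. Equal weighting of the other classes gave 147 and 129 higher in root and spindle nuclei, 28.0% and 28.9% of calls, and naming nuclei singly gave 214 higher and 68 lower in root nuclei. No paired analysis was possible because each method has 1 library. The 34 root nuclei hold 117657 and 142293 UMIs, so that 1 UMI is worth 8.50 and 7.03 CPM there, and lower levels could not be detected.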
